A study of Mus musculus with 30 samples.

Results

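The mouse olfactory placode (OPL) at embryonic day 11.5 (E11.5) was dissected into an epithelial piece (EPI) and the mesenchyme next to it (MES), and 3 Mouse Exon 1.0 ST arrays (Affymetrix) were hybridised for each. These 6 arrays were chosen by their labels, tissue and age, out of 30 in the series. They came from wild type embryos, F1 of a C57Black6 x DBA cross, and each array carried RNA pooled from at least 4 embryos. Heads were cut into vibratome slices and the tissues separated by hand with pins, and per the study mesenchymal cells tend to stay attached to the epithelium. The study estimated by qPCR how much mesenchyme its epithelial samples held, and how much epithelium its mesenchymal samples held. It then subtracted the mesenchymal share from its epithelial data, a step not taken here. The same pair of fractions was collected from the OPL at E12.5 and from the olfactory epithelium (OE) and vomeronasal organ (VNO) at E14.5, 3 arrays a fraction, also wild type. Separate pools are 3 samples of a fraction, so p-values measure the spread between pools.

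The olfactory placode is a patch of thickened surface ectoderm that invaginates to form the nasal pit. Its cells are joined by tight junctions, adherens junctions and desmosomes, and the placode gives rise to olfactory sensory neurons, vomeronasal neurons and the neurons that secrete gonadotropin-releasing hormone (GnRH), which leave it for the brain. The mesenchyme around it comes largely from the cranial neural crest, lays down collagen and other matrix, and exchanges signals such as FGFs, retinoic acid and PDGFs with the epithelium.

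Levels are log2 values with each array centred on its own median, so that 0 is the median cluster of an array and every difference is EPI minus MES relative to the shift of all clusters. That shift was large: the array medians lay between 6.41 and 6.44 in EPI and between 7.05 and 7.15 in MES, and the median difference of all 23238 clusters was -0.66 on the deposited scale. Centred, it was -0.002, though it still varied with level, with medians of -0.13 for clusters with a mean deposited log2 value of 4 to 6 and 0.22 for those over 10. EPI replicates correlated at 0.982 to 0.985, MES replicates at 0.984 to 0.99, and EPI with MES arrays at 0.959 to 0.969. The median SD over genes was 0.136 among EPI arrays and 0.08 among MES arrays.

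Of 14807 genes, 577 (3.90%) were higher and 210 (1.42%) lower in EPI, by limma's moderated test with Benjamini-Hochberg adjustment over all clusters (called where the adjusted p did not exceed 0.05 and the log2 difference was 0.9 or more in size). Higher genes made up 73.3% of the calls. On the deposited scale, where the shift of all clusters enters each difference, the split was 119 higher and 3794 lower (3.04% higher). Every called gene had 3 EPI arrays on one side of all 3 MES arrays, against 30.9% of all genes with EPI above MES and 26.0% with EPI below. Rank Products, a rank-based test that the study applied, called 246 (1.66%) higher and 29 (0.196%) lower.

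**Figure D1:**
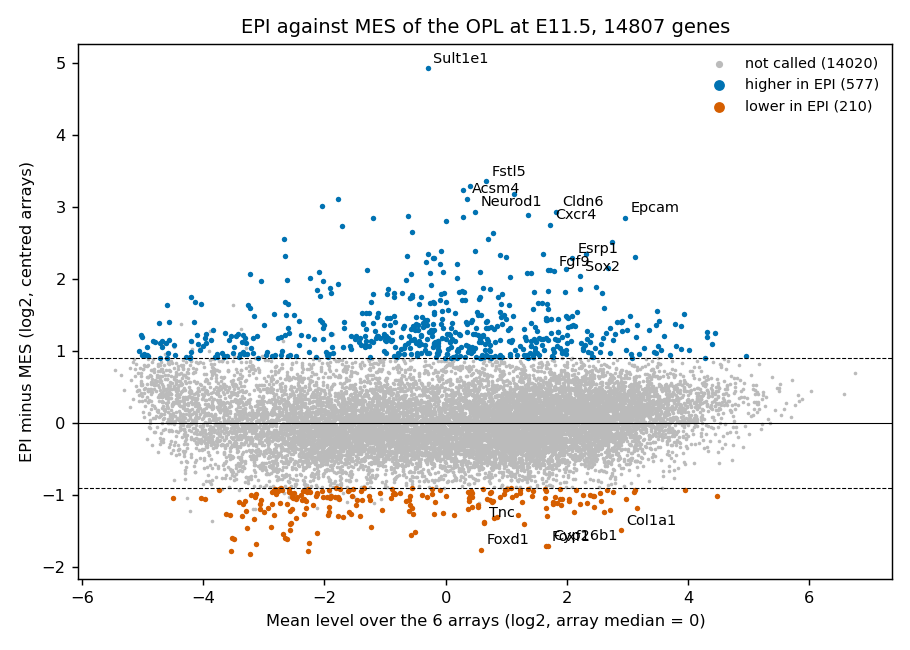
Mean level over the 6 arrays (x axis, log2, array median at 0) against the difference between EPI and MES (y axis, log2) for 14807 genes of the OPL at E11.5, with dashed lines at the smallest difference called. The 577 higher genes reach a difference of 4.92 for Sult1e1, and the 210 lower genes reach -1.82.

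The largest difference called was that of Sult1e1, a sulfotransferase that inactivates oestrogens. Its level was 1.86, 2.40 and 2.23 on the EPI arrays and -2.59, -2.81 and -2.88 on the MES arrays, a difference of 4.92 ± 0.16 (SE), with a limma adjusted p of 0.00106. The groups lay far apart. All MES arrays were well under the array median, near the mean level of olfactory receptor genes there (-3.54 to -3.34), and detection was not assessed, so no fold is given. Fstl5, a secreted follistatin-like protein, differed by 3.36, and Pcp4, a calmodulin-binding peptide of neurons, by 3.23. The other 7 of the 10 largest differences were those of Olfr231 (3.29), Mrto4 (3.18), Acsm4 (3.11), Ermn (3.11), Selenok (3.01), Cldn6 (2.94) and Neurod1 (2.93).

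The lower end was shallower. Its named regulators were Foxd1 (-1.76), a forkhead factor of craniofacial mesenchyme, Foxf1 (-1.71), a forkhead factor of mesenchyme that responds to hedgehog signalling, and Cyp26b1 (-1.70), an enzyme that breaks down retinoic acid. The other 7 of the 10 were Olfr16 (-1.82), Olfr649, Olfr361, 4930548H24Rik, Echdc3, Olfr1284 and Ifnk (-1.61), all of them dim, with means of -3.08 to -4.42 in EPI and -1.39 to -2.68 in MES.

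Many genes of epithelial cell junctions were higher. Of 33 measured, 18 were higher and 0 lower by limma, beside 3.90% and 1.42% of all genes, with 0 lower at an unadjusted p under 0.05 and 13 higher and 0 lower by Rank Products. The median difference of the 33 was 1.13, beside 0.015 over all genes, and 0.47 on the deposited scale, beside -0.65 over all genes. All 18 kept the call when each array was left out in turn. This list and those below were chosen with earlier results of these data known. Their counts beside all genes describe the members and are not tests of a group.

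Epcam, a homophilic adhesion molecule of epithelia, had levels of 4.47, 4.22 and 4.48 on the EPI arrays and 1.5, 1.59 and 1.54 on the MES arrays. That is a difference of 2.85 ± 0.10 (SE), 7.19-fold, with a limma adjusted p of 0.00106, and the 2 sets of arrays did not come near each other. Cldn6, a claudin of tight junctions in embryonic epithelia, stood at 3.16, 3.20 and 3.52 in EPI and at 0.24, 0.42 and 0.42 in MES, a difference of 2.94. Cldn9, a close relative of Cldn6, differed by 2.29, and Cldn3, Cldn4, Cldn7 and Cldn23 by 1.22, 1.44, 1.31 and 1.05. Ocln, the tight junction protein occludin, differed by 2.09.

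Cdh1, the epithelial cadherin, was less far apart, at 2.63, 2.30 and 2.51 in EPI and 1.18, 1.23 and 1.26 in MES, a difference of 1.26 ± 0.11 (SE). Cdh2, the neural cadherin, had 3.72, 3.49 and 3.85 in EPI and 2.95, 3.03 and 3.09 in MES, which at 0.66 was below the smallest difference called. Desmosomes were represented by Pkp2, a plaque protein, at 1.91, Dsg2 at 1.32 and Dsc2 at 1.14. Genes of apical membrane identity and traffic followed, with Rab25, a GTPase of epithelial recycling, at 2.02, Ap1m2, the epithelial subunit of a sorting adaptor, at 1.40, Myo5b, a motor of the same recycling route, at 1.37, and Crb3, an apical polarity protein, at 1.36.

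Membrane-bound serine proteases and their inhibitors, which act on the epithelial surface, gave 5 higher and 0 lower of 9 by limma, beside 3.90% higher over all genes, with 0 lower at an unadjusted p under 0.05 and 3 higher and 0 lower by Rank Products. Spint2, an inhibitor of these proteases, had levels of 3.75, 3.61 and 3.88 in EPI and 1.59, 1.63 and 1.57 in MES, a difference of 2.15 ± 0.09 (SE). Its targets Prss8 and St14 differed by 1.81 and 1.31, and the second inhibitor Spint1 by 1.12. The fifth was Cdcp1, a membrane protein that such proteases cleave, at 1.23. Of the 4 not called, 1 had EPI below MES on all arrays, at -0.22.

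The regulators of the epithelial state were fewer. Of 17 epithelial transcription and splicing factors, 4 were higher and 0 lower (2 lower at an unadjusted p under 0.05, 0 by Rank Products), beside 3.90% and 1.42% of all genes. Their median was 0.46, which became -0.20 on the deposited scale, beside -0.65 over all genes on that scale. Esrp1, a splicing factor that sets the epithelial form of many transcripts, had 3.25, 2.99 and 3.43 in EPI and 1.00, 0.83 and 0.98 in MES, a difference of 2.29. Grhl2, a grainyhead-like factor that activates junction genes, had 1.67, 1.36 and 1.63 in EPI and -0.35, -0.21 and -0.39 in MES, a difference of 1.87. Elf5, an ETS factor of epithelia, differed by 2.38 and Pitx1 by 1.23. Krt18, a keratin of simple epithelia, differed by 1.82, and 2 of 11 keratins were higher in all, beside 3.90% of all genes. Itgb6, the epithelial integrin subunit, differed by 1.86. It was the 1 gene of 10 called among hemidesmosome and basement membrane genes, beside 3.90% of all genes higher.

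The Snail and Zeb repressors of epithelial genes were not called. Snai1 had 1.14, 1.16 and 0.83 in EPI and 1.52, 1.66 and 1.6 in MES, a difference of -0.55. Zeb2 had 2.10, 2.39 and 1.92 in EPI and 2.77, 2.84 and 2.76 in MES, a difference of -0.65, also short of a call. Zeb1 (-0.15) and Snai2 (0.10) were close to the shift of all genes.

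Snail and Zeb proteins are known to bind the E-box CAGGTG in promoters of epithelial genes, and grainyhead-like proteins the motif AACCNGTT. Both were searched, on both strands, in the 250 bases before the RefSeq start of each gene (GRCm38.p6), where 11855 of the 14807 genes had a window. CAGGTG stood in 12 of 15 called genes of the 3 epithelial lists above (80%), in 0 of 14 matrix and mesenchymal factor genes called lower, and in 19.2% of all genes with a window. It stood in 28.6% of the 447 higher genes and 11.1% of the 162 lower genes with a window. AACCNGTT stood in 1 of the 15 and 0 of the 14, and in 2.09% of all. The 15 and 14 are those of 27 and 21 called genes with a window, and some genes have more than 1. Among the 15, Cldn3, Marveld2 and Spint1 had no CAGGTG. Uncalled members of the same lists were not counted, so the 80% cannot be tied to the call. A match describes the letters only.

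The windows of 5 of these genes and of a collagen gene with no match are printed because the E-box copies can be counted in them. Each runs 5′ to 3′ toward the start, with matches in capitals (CAGGTG, its reverse complement, or, in Rab25 only, AACCTGTT). Epcam (chr17:87635729-87635978, plus strand) has E-boxes starting 187 and 19 bases before the start. Cldn6 (chr17:23679115-23679364, plus) has 1 at 93 bases. Ap1m2 (chr9:21312334-21312583, minus) has 4, at 81, 51, 21 and 9 bases. Spint2 (chr7:29281978-29282227, minus) has 3, at 74, 55 and 9 bases. Rab25 (chr3:88548280-88548529, minus) has them at 64 and 53 bases and the grainyhead-like motif at 102. Col1a2 (chr6:4505368-4505617, plus) has none.
Epcam: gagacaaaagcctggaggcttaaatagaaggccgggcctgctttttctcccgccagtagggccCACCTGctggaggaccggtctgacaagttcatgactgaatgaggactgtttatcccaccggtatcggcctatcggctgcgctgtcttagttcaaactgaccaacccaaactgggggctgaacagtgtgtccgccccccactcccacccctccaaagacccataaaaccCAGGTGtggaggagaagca
Cldn6: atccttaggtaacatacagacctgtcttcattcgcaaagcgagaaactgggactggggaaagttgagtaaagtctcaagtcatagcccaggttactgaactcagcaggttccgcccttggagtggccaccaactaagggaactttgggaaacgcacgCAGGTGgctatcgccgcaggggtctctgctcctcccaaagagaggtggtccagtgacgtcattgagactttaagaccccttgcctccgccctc
Ap1m2: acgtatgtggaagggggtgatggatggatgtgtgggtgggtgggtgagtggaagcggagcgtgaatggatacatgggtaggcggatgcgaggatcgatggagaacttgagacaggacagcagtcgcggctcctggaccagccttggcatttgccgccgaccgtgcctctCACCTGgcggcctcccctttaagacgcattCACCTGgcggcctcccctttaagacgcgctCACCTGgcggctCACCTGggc
Spint2: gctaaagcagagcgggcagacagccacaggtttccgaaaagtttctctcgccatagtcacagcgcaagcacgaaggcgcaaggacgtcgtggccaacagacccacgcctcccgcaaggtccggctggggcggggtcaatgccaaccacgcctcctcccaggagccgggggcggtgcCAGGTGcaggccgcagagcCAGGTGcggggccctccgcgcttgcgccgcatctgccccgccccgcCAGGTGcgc
Rab25: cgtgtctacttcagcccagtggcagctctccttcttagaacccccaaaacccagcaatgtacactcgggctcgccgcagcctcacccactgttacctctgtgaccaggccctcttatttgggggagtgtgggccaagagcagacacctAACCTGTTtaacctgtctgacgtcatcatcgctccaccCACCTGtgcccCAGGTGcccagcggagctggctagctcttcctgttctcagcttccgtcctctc
Col1a2: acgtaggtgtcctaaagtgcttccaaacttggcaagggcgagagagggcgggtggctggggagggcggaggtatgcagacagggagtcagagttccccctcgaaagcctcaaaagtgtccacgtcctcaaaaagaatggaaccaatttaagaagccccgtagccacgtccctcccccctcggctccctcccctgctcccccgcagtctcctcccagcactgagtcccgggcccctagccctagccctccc

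Transcription factors that specify the placode were higher in EPI in 11 of 28 cases and lower in 0 by limma, beside 3.90% and 1.42% of all genes. At an unadjusted p under 0.05, 0 were lower, and 0 by Rank Products. Their median was 0.59, which became -0.07 on the deposited scale, beside -0.65 over all genes on that scale. Sox2, a factor of sensory and neural progenitors, had 3.31, 2.89 and 3.48 in EPI and 1.33, 1.07 and 1.18 in MES, a difference of 2.04 ± 0.17 (SE), 4.10-fold. Otx2, which patterns the anterior head, had 2.75, 2.55 and 2.96 in EPI and 0.67, 0.75 and 0.46 in MES, a difference of 2.12. Lhx2, a LIM factor needed in olfactory progenitors, differed by 1.89, Sp8 by 1.83 and Dlx5, a distal-less factor of the placode, by 1.58.

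Pax6, a regulator of placode formation, was uneven among the EPI arrays, at 0.88, 0.12 and 0.99, and stood at -0.60, -0.55 and -0.54 in MES. Its difference was 1.23 with a limma adjusted p of 0.014, and without MES replicate 3 the adjusted p was 0.0504. Meis2, Otx1, Fezf2, Meis1 and Eya2 differed by 1.6, 1.39, 1.40, 1.25 and 1.01. Hesx1 was dim in both fractions, at -3.54 ± 0.22 in EPI and -3.76 ± 0.08 in MES (SD, n = 3 each).

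**Figure D2:**
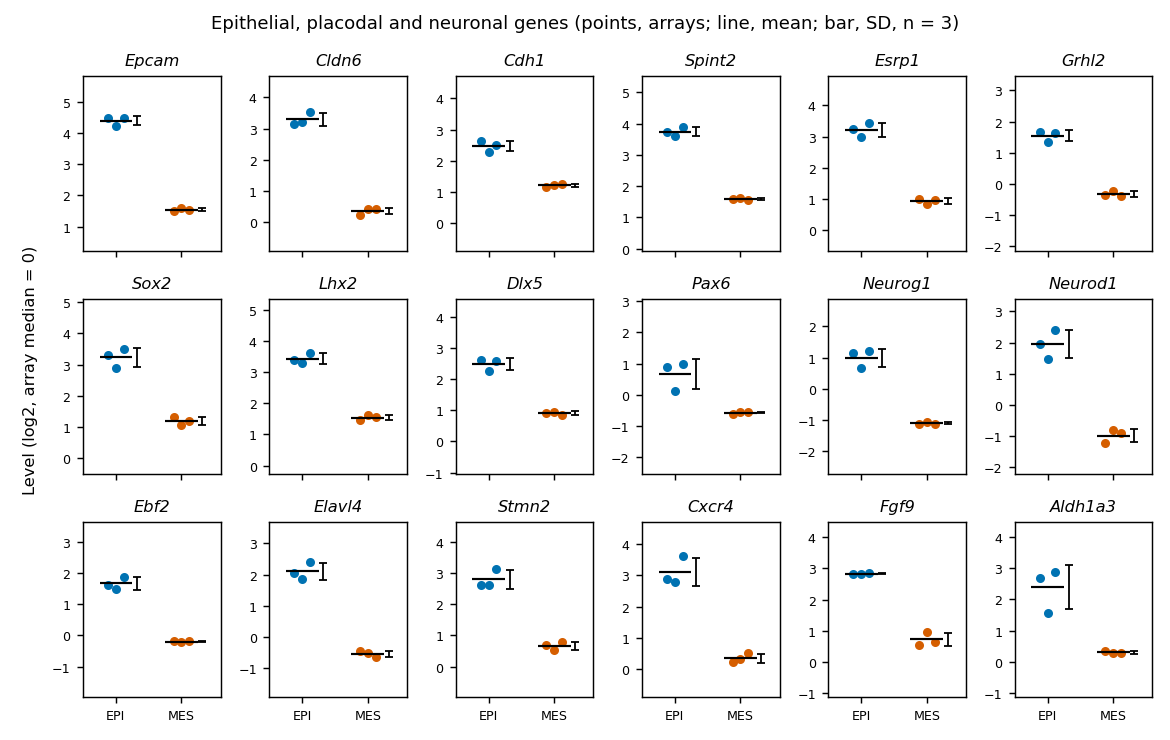
Levels (y axis, log2, array median at 0) of 18 epithelial, placodal, neuronal and signalling genes on each EPI and MES array of the OPL at E11.5, with the mean as a line and the SD as a bar (n = 3 arrays each). In all 18 the lowest EPI array lies above the highest MES array, and Pax6 and Aldh1a3 have EPI replicate 2 apart from the other two.

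Genes of the neuronal lineage were the next group. Their counts stand beside 3.90% higher and 1.42% lower of all genes by limma. At an unadjusted p under 0.05, 3881 of all 14807 genes were higher and 3200 lower. Of 33 proneural and neuronal fate genes 9 were higher and 1 lower (16 and 9 at an unadjusted p under 0.05, 8 and 0 by Rank Products), and of 40 genes of young neurons 17 were higher and 0 lower by limma (32 higher and 3 lower at an unadjusted p under 0.05, 8 and 0 by Rank Products). The median of the young neuron genes was 0.79, and 0.13 on the deposited scale. That of the proneural genes was 0.13, which became -0.54 on the deposited scale. All genes had a median of -0.65 on that scale.

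Neurog1, which commits olfactory progenitors to neurons, had levels of 1.13, 0.66 and 1.2 in EPI and -1.11, -1.06 and -1.13 in MES, a difference of 2.10 ± 0.15 (SE). Neurod1, which acts after it, had 1.97, 1.49 and 2.41 in EPI and -1.23, -0.81 and -0.91 in MES, a difference of 2.93, 7.64-fold. Nhlh1, Ebf2, St18 and Neurod4, all factors of early neuronal differentiation, differed by 2.55, 1.86, 1.98 and 1.76. The gene called lower was Neurod2, at -1.84, -2.58 and -2.60 in EPI and -1.58, -1.35 and -1.0 in MES, whose call was lost without any 1 of 5 arrays (EPI replicate 2 or 3, or MES replicate 1, 2 or 3), at -0.87 to -1.16, and after quantile normalization at -0.90.

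Elavl4, an RNA-binding protein of postmitotic neurons, had 2.06, 1.85 and 2.40 in EPI and -0.44, -0.53 and -0.63 in MES, a difference of 2.64. Stmn2, a microtubule regulator of growing axons, had 2.62, 2.62 and 3.13 in EPI and 0.70, 0.53 and 0.77 in MES, a difference of 2.12. Ina, a neurofilament protein, differed by 1.81 and Dcx, of migrating neurons, by 1.44. Gap43, of growth cones, had 2.66, 2.74 and 2.59 in EPI and 2.90, 2.82 and 2.94 in MES and was not called.

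Markers of mature sensory neurons were nearly all uncalled, with Slc17a6, a glutamate transporter, higher by 1.26 as 1 of 16 (6.25%, near the 3.90% of all genes). Omp, the marker of mature olfactory neurons, had -1.25, -1.34 and -0.84 in EPI and -1.59, -0.93 and -0.90 in MES, and the arrays overlapped. Among 30 genes of GnRH neurons and Kallmann syndrome, the inherited loss of smell with GnRH deficiency, 3 were higher, beside 3.90% of all genes. By limma 0 were lower, beside 1.42% of all genes, and 0 by Rank Products. At an unadjusted p under 0.05, 7 were lower, beside 3200 of all 14807 genes. Prokr2, a receptor mutated in that syndrome, had 1.51, 1.83 and 2.84 in EPI and -0.30, -0.30 and -0.23 in MES, a difference of 2.34 ± 0.33 (SE). Gnrh1 itself was dim, at -0.75, -0.84 and -0.68 in EPI and -1.36, -1.21 and -1.03 in MES.

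Some mesenchymal genes were lower in EPI. Of 34 collagen genes 10 were lower and 0 higher by limma, beside 1.42% of all genes lower, while Rank Products called 1 lower and 0 higher. At an unadjusted p under 0.05, 24 were lower and 0 higher, beside 3200 and 3881 of all 14807 genes. Without EPI replicate 3 the limma count was 6 lower and without EPI replicate 2 it was 15, and 6 of the 10 kept the call when each array was left out. The median of the collagens was -0.72, and -1.38 on the deposited scale, beside -0.65 over all genes on that scale. Of 48 mesenchymal transcription factors 8 were lower and 1 (Mecom, 0.95) higher by limma, with a median of -0.47, and Rank Products called 3 lower and 0 higher. Without MES replicate 2 or MES replicate 3 there were 5 lower, and those 5 kept the call without each array. Mecom was no longer called without EPI replicate 1 (0.84), EPI replicate 3 (0.87) or MES replicate 3 (0.92, limma adjusted p of 0.052). After quantile normalization, which called 3.98% of all genes higher and 1.27% lower, these counts were 12 lower for collagens, and 11 lower and 0 higher for the factors. In bulk tissue, fewer mesenchymal cells and less RNA per cell cannot be told apart.

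Col1a1, a chain of the main fibrillar collagen, had 2.32, 2.26 and 1.86 in EPI and 3.57, 3.71 and 3.62 in MES, a difference of -1.49 ± 0.14 (SE) with a limma adjusted p of 0.00251. Col1a2, its partner chain, had 4.05, 4.26 and 3.59 in EPI and 4.93, 5.03 and 5.0 in MES, a difference of -1.02 that became -0.83 without EPI replicate 3. Col5a2, Col12a1 and Col2a1 differed by -1.18, -1.29 and -1.24, and the basement membrane chains Col4a1 and Col4a2 by -0.96 and -1.05. Tnc, the matrix glycoprotein tenascin C, had 0.22, 0.13 and -0.52 in EPI and 1.31, 1.33 and 1.33 in MES, a difference of -1.38. Adamts20, a matrix protease, differed by -1.40 and Itga11, a collagen-binding integrin subunit, by -1.27. Each was the only call in its list. The limma calls were 3 lower of 47 matrix glycoproteins and proteoglycans, Tnc among them, beside 1.42% of all genes. They were 1 lower of 22 matrix proteases and inhibitors, and 1 lower of 27 mesenchymal adhesion and surface genes. None of these lists had a gene called higher. Rank Products called 1, 1 and 0 lower in the same order.

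Among the mesenchymal factors Foxd1 had the largest difference in size, at -0.20, -0.15 and -0.52 in EPI and 1.45, 1.5 and 1.46 in MES, a difference of -1.76 ± 0.12 (SE), 3.38-fold lower in EPI. Foxf1 was spread out over the EPI arrays, at 1.45, 0.78 and 0.19, and tight in MES, at 2.56, 2.60 and 2.39. Foxl1, a related factor, had -1.67, -2.15 and -2.03 in EPI and -0.62, -0.30 and -0.60 in MES. Nr2f1, an orphan nuclear receptor, differed by -1.17.

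Several textbook mesenchymal genes did not reach the call. Twist1 had 3.82, 4.10 and 3.55 in EPI and 4.32, 4.44 and 4.38 in MES, a difference of -0.56. Prrx1 differed by -0.19, Vim by -0.33 and Cdh11, a mesenchymal cadherin, by -0.15. Of 82 mesenchymal factors and collagens, 49 lay above the array median on all 3 EPI arrays, and 58 on all 3 MES arrays.

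**Figure D3:**
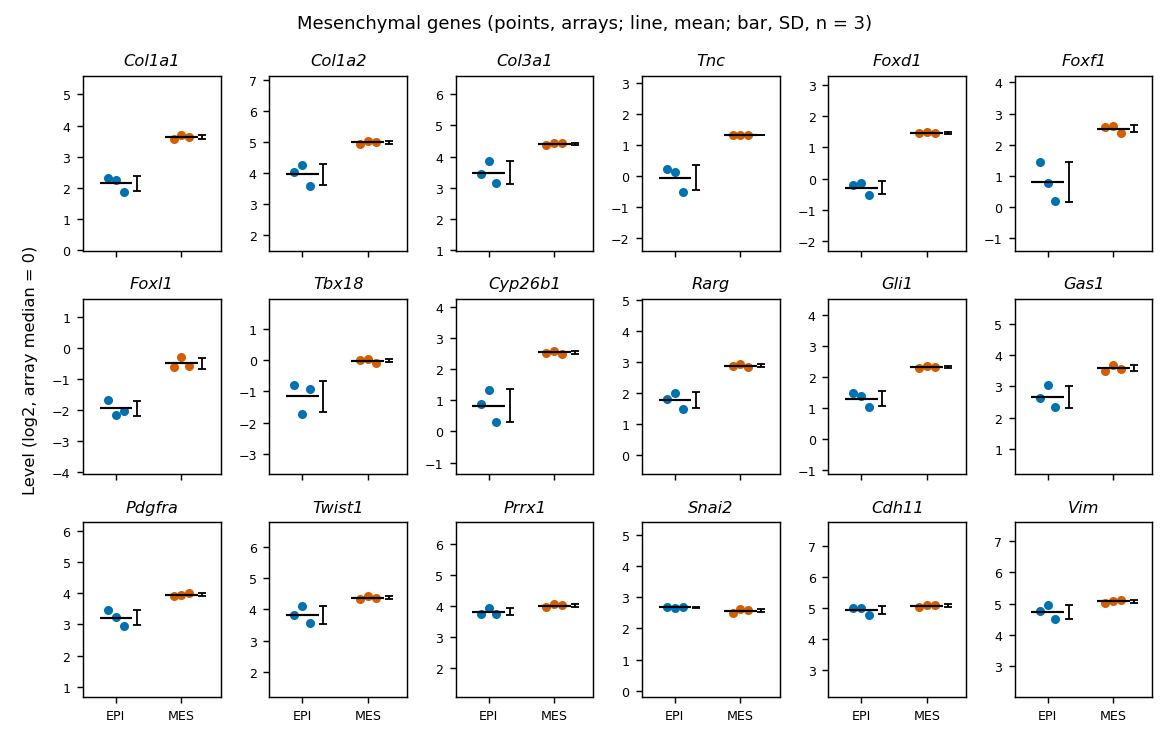
Levels (y axis, log2, array median at 0) of 18 mesenchymal genes on each EPI and MES array of the OPL at E11.5, with the mean as a line and the SD as a bar (n = 3 arrays each). MES arrays sit close together, while EPI arrays spread, as for Foxf1 with 1.45, 0.78 and 0.19 in EPI and 2.56, 2.60 and 2.39 in MES.

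The EPI arrays were not interchangeable. EPI replicate 3 was the highest of the 3 for 362 of the 577 higher genes and the lowest for 123 of the 210 lower genes. EPI replicate 2 was the lowest for 335 of the higher genes and the highest for 106 of the lower genes. Over all 33 junction genes the median level was 0.79, 0.45 and 0.98 on the EPI arrays and -0.54, -0.40 and -0.45 on the MES arrays. Over all 34 collagens it was 0.67, 0.63 and 0.38 on the EPI arrays and 1.2, 1.37 and 1.29 on the MES arrays. How far the share of mesenchyme in each EPI pool enters these differences was not tested.

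Cartilage genes were lower in 5 of 17 cases by limma, beside 1.42% of all genes, of which 4 kept the call without each array, with 4 lower after quantile normalization and 0 by Rank Products. This list shares members with the collagen list, Col2a1 among them, so the counts of these lists are not independent. Among the 5 was Sox9, the master factor of chondrocytes, at 2.45, 2.57 and 2.35 in EPI and 3.44, 3.59 and 3.48 in MES. Cnmd, a cartilage gene that the study used to stand for mesenchyme, differed by -0.91, by -0.81 without EPI replicate 1, by -0.88 without MES replicate 1, and by -0.79, uncalled, after quantile normalization. The other genes so used, Sp7 for mesenchyme (-0.82) and Foxj1 (0.31), Fmo2 (0.42) and Ehf (0.54) for epithelium, were not called at this age.

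Some lists of other cell types had no call by limma. These were 0 of 18 endothelial, 0 of 11 erythroid, 0 of 17 macrophage, 0 of 12 pericyte and smooth muscle, 0 of 11 glial and neural crest, 0 of 11 skeletal muscle and 0 of 12 lens genes, and 0 by Rank Products. At an unadjusted p under 0.05, 12 endothelial and 8 pericyte genes were lower and 2 endothelial and 0 pericyte genes higher, 3 macrophage genes were higher and 4 lower, and the remaining lists had at most 3 in either direction. Over all 14807 genes, 3881 were higher and 3200 lower at that unadjusted level. Kdr, a receptor of endothelial cells, had 1.67, 1.66 and 1.48 in EPI and 2.06, 2.04 and 2.03 in MES. Forebrain genes gave 2 higher, Gad2 (1.68) and Fezf2 (1.40), and 2 lower, Tbr1 (-1.08) and Pou3f2 (-0.99), of 16 by limma, beside 3.90% and 1.42% of all genes. Rank Products called 2 higher and 0 lower. Fezf2 is also counted among the placodal factors above. Pou3f2 was no longer called without any 1 of 5 arrays (all but EPI replicate 2). Bone genes gave 1 higher of 8 by both tests, Phex (1.80), a peptidase of bone, beside 3.90% of all genes by limma and 1.66% by Rank Products. Of 26 cell cycle genes 0 were called by limma or Rank Products (11 higher and 1 lower at an unadjusted p under 0.05). Of the Y-linked genes, Kdm5d was called lower, at -0.61, 0.47 and -0.18 in EPI and 0.86, 0.81 and 0.88 in MES, and Eif2s3y, at 0.43, 1.63 and 1.17 in EPI and 1.51, 1.32 and 1.41 in MES, was not. EPI replicate 1 was low in both, and the sex of the embryos in a pool was not tested.

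**Figure D4:**
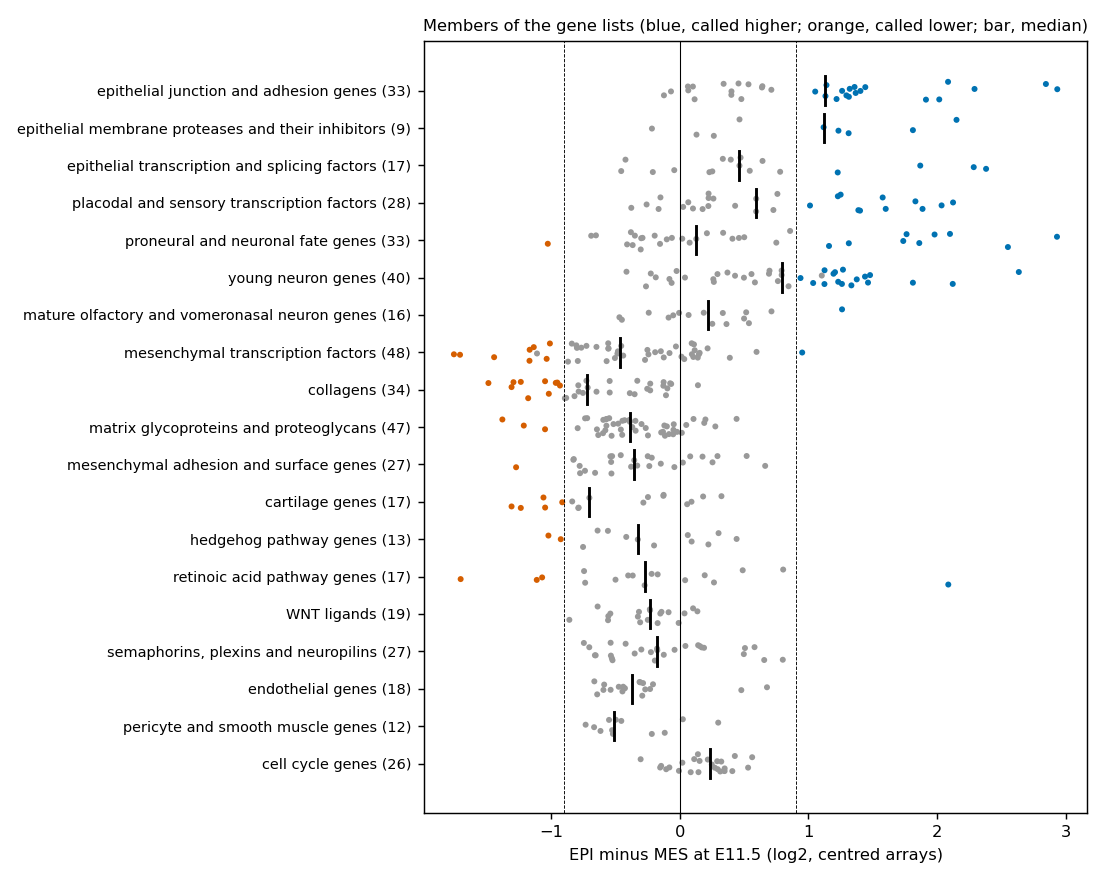
Difference between EPI and MES (x axis, log2, centred arrays) of each measured member of 19 gene lists in the OPL at E11.5, with called members in colour, the list median as a bar and dashed lines at the smallest difference called. Junction genes have their median at 1.13 and collagens at -0.72, and every called member of the epithelial lists lies on the EPI side.

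Ligands and receptors were mostly not called. By limma 7 were higher and 1 lower (Ntrk2, -0.99) of 38 genes of the PDGF, endothelin, neuregulin and other paired signals, 2 and 0 of 34 FGF pathway genes, 1 and 2 of 46 BMP and TGF-beta genes, 2 and 2 of 35 WNT receptors, modulators and targets, and 3 and 2 of 35 ephrins, Slits and their receptors, beside 3.90% and 1.42% of all genes. Ntrk2 was no longer called without any 1 of 5 arrays (all but EPI replicate 1). With 1 array left out the small counts moved, to 0 WNT genes either way without EPI replicate 3, 0 lower BMP and TGF-beta genes without EPI replicate 3 or MES replicate 3, and 1 higher ephrin and Slit gene without EPI replicate 1 or MES replicate 1. Fgf9, an FGF ligand that signals from epithelium to mesenchyme, had 2.82, 2.82 and 2.87 in EPI and 0.56, 0.97 and 0.65 in MES, a difference of 2.11 ± 0.12 (SE), 4.31-fold. Its receptors were not called, with Fgfr1 at -0.66 and Fgfr2 at -0.89, the second called at -1.0 after quantile normalization. Among the feedback genes of the pathway, Spry2 had 4.13, 4.15 and 4.14 in EPI and 3.4, 3.51 and 3.33 in MES, and Dusp6 differed by 0.41. The other of the 2 higher FGF pathway genes was Fgf12 (2.24), an intracellular relative of the FGFs, and 2 of 34 is 5.88%, near the share of all genes.

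The PDGF ligands Pdgfa and Pdgfc were higher in EPI. Pdgfa had 2.47, 2.45 and 2.58 in EPI and 0.79, 0.90 and 0.86 in MES, a difference of 1.65, and Pdgfc differed by 1.41. Their receptor Pdgfra had 3.46, 3.25 and 2.95 in EPI and 3.92, 3.96 and 4.00 in MES, at -0.74 not called, and at -0.92 called after quantile normalization. For chemokine signalling the receptor was the epithelial gene, with Cxcr4, which guides migrating GnRH neurons, at 2.89, 2.79 and 3.62 in EPI and 0.22, 0.32 and 0.50 in MES, a difference of 2.75, 6.74-fold. Its ligand Cxcl12 had 2.41, 2.36 and 2.65 in EPI and 2.95, 2.95 and 2.90 in MES.

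In the retinoic acid pathway a synthesis gene was higher in EPI and a breakdown gene lower. Aldh1a3, which makes retinoic acid, had 2.69, 1.58 and 2.89 in EPI and 0.34, 0.29 and 0.27 in MES, a difference of 2.09 ± 0.34 (SE). Cyp26b1, which degrades it, had 0.87, 1.33 and 0.29 in EPI and 2.51, 2.60 and 2.50 in MES, a difference of -1.70 ± 0.25 (SE). The receptor Rarg had 1.80, 2.01 and 1.5 in EPI and 2.87, 2.93 and 2.85 in MES, a difference of -1.11, and Rxrg differed by -1.07. Aldh1a2, another synthesis gene, overlapped between the fractions, at 1.93, 2.59 and 2.86 in EPI and 2.16, 2.26 and 2.16 in MES. Of 17 genes of the pathway, 1 was higher (5.88%, near the 3.90% of all genes) and 3 lower by limma, beside 1.42% of all genes. Rank Products called 1 higher and 1 lower.

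Of 13 hedgehog pathway genes 2 were lower by limma (0 without EPI replicate 3, 1 without MES replicate 2 or MES replicate 3), beside 1.42% of all genes, and 0 by Rank Products, and 0 kept the call without each array. Gli1, a transcription factor induced by hedgehog, had 1.49, 1.38 and 1.02 in EPI and 2.29, 2.36 and 2.31 in MES, a difference of -1.02 that became -0.88 without EPI replicate 3. Gas1, a hedgehog co-receptor, differed by -0.93 and was no longer called without EPI replicate 1 (-0.90, limma adjusted p of 0.053), EPI replicate 3 (-0.76), MES replicate 2 (-0.87) or MES replicate 3 (-0.94, limma adjusted p of 0.059). Ptch1, the receptor that hedgehog also induces, differed by -0.75 and was not called. The ligand Shh was dim in both, at -0.74, -0.96 and -1.14 in EPI and -1.21, -0.94 and -1.36 in MES, and the arrays overlapped.

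Other receptors and ligands higher in EPI were Nrg1 (1.82), a neuregulin, Kit (1.35), the stem cell factor receptor, Gfra1 (1.21), a GDNF receptor, and Met (1.06), the HGF receptor. Of their ligands, Kitl was at 0.86 and Hgf at -0.38, both uncalled. In the Notch pathway 2 of 20 genes were higher and 0 lower by limma, beside 3.90% and 1.42% of all genes. Mfng, a modifier of Notch, differed by 1.31. Hey1 was no longer called without EPI replicate 3 (0.85) or MES replicate 2 (0.88). By limma 0 of 19 WNT ligands and 0 of 27 semaphorins, plexins and neuropilins were called, also 0 by Rank Products. At an unadjusted p under 0.05, 6 WNT ligands were lower and 0 higher, and 11 semaphorin family genes were lower and 5 higher. Of all 14807 genes, 3200 were lower and 3881 higher at that level.

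The separation was then set beside the later pairs of fractions. The test of the difference between ages used 12 arrays a time, and both tests shared the 6 arrays of E11.5. Against E12.5, the EPI minus MES difference was larger at E11.5 for 610 genes (4.12%) and smaller for 190 (1.28%). Against the OE at E14.5 it was larger for 273 (1.84%) and smaller for 1137 (7.68%). On the deposited scale the counts were 108 larger and 2253 smaller against E12.5, and 189 larger and 2135 smaller against the OE. After quantile normalization they were 455 and 134 against E12.5, and 371 and 843 against the OE. Of the smaller genes, 96 against E12.5 and 688 against the OE were shared with it. On centred arrays the median difference of all genes was itself 0.015 at E11.5 and 0.30 in the OE, which enters each change. Larger and smaller are meant with the sign, so that a smaller value lies further toward the mesenchyme.

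Junction genes had medians of 1.13 in the OPL at E11.5, 0.85 at E12.5, 0.78 in the OE and 0.71 in the VNO at E14.5, which is 1.12, 0.91, 0.48 and 0.46 relative to all genes. By the test 1 of 33 was larger at E11.5 than at E12.5, near the 4.12% of all genes. Against the OE 6 of 33 were larger, beside 1.84% of all genes (9 larger and 1 smaller after quantile normalization). Epcam was in both sets, with differences of 2.85 at E11.5, 1.89 at E12.5, 1.48 in the OE and 1.23 in the VNO. Esrp1 followed the same order at 2.29, 1.69, 0.80 and 0.47, with a change of 1.49 between E11.5 and the OE (limma adjusted p of 0.0007), while Cdh1 at 1.26, 1.00, 0.88 and 0.51 gave a change of 0.39 (limma adjusted p of 0.072).

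The mesenchymal lists lay nearer to the median of all genes in the OE than in the OPL. That median was 0.015 in the OPL at E11.5, -0.06 at E12.5, 0.30 in the OE and 0.24 in the VNO. Collagens had medians of -0.72, -0.57, 0.19 and 0.18 in the same order, which is -0.74, -0.51, -0.11 and -0.07 relative to all genes. Mesenchymal factors had -0.47, -0.43, 0.28 and 0.59, or -0.48, -0.37, -0.02 and 0.34 relative to all genes. The sign of these medians in the OE depended on the scaling, with -0.04 for collagens and -0.02 for factors after quantile normalization and -0.30 and -0.22 on the deposited scale.

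By the test, 13 of 34 collagens and 20 of 48 factors were smaller at E11.5 than in the OE, beside 7.68% of all genes, and 9 and 17 after quantile normalization. Col1a1 was -1.49 at E11.5 and 0.35 in the OE, a change of -1.84 (limma adjusted p of 0.00024). Foxd1 was -1.76 at E11.5 and 0.56 in the OE, a change of -2.32 (limma adjusted p of 0.00011). Tnc kept its side, at -1.38 at E11.5 and -0.99 in the OE, with a change of -0.39 (limma adjusted p of 0.44).

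**Figure D5:**
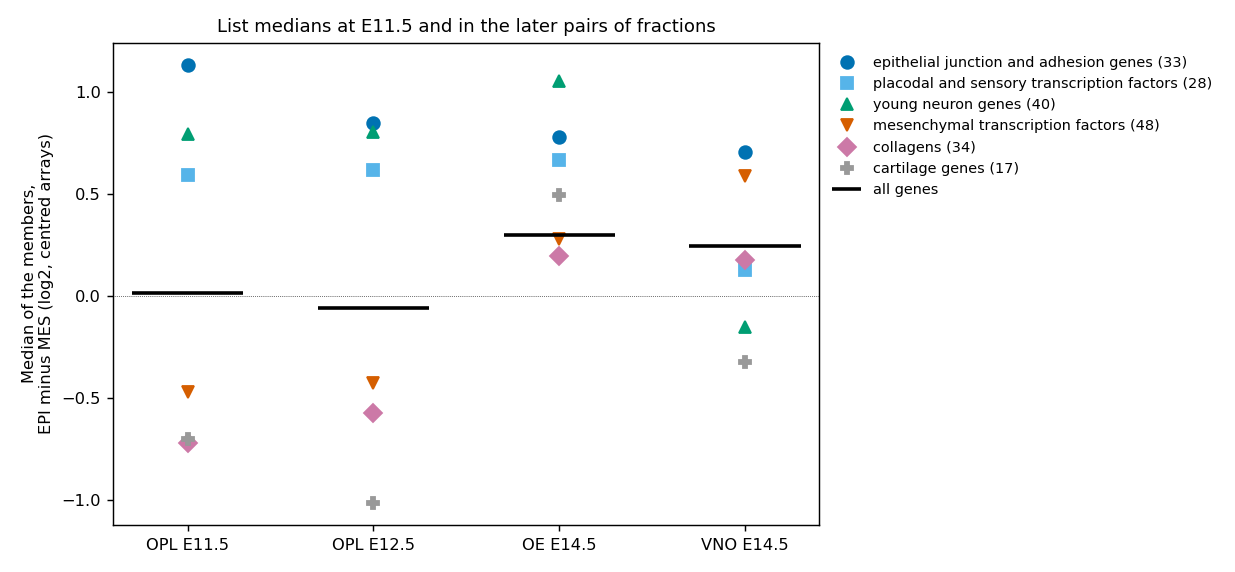
Median over the measured members of 6 gene lists of the difference between EPI and MES (y axis, log2, centred arrays) in the OPL at E11.5 and E12.5 and the OE and VNO at E14.5 (x axis), with the median of all genes as a black line. Junction genes lie above all genes in the 4 pairs, at 1.13 in the OPL at E11.5 and 0.71 in the VNO, while collagens lie at -0.72 at E11.5 and at 0.19 in the OE, where all genes lie at 0.30.

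Neuronal and signalling genes differed in course. Ebf2 was 1.86 at E11.5 and 1.86 at E12.5 but -0.24 in the OE, a change of 2.10 between E11.5 and the OE (limma adjusted p of 8.4e-05). Neurog1 and Elavl4 changed by 1.67 and 1.78 against the OE, and Dcx by 0.54, not called. Over their lists the changes went both ways. Of 40 young neuron genes 2 were larger and 5 smaller at E11.5 than in the OE, beside 1.84% and 7.68% of all genes. The median of that list was 0.79 at E11.5 and 1.05 in the OE, or 0.78 and 0.75 relative to all genes. Of 33 proneural genes 7 were larger and 5 smaller, with medians of 0.13 at E11.5 and 0.63 in the OE. Aldh1a3 was 2.09 at E11.5, -0.48 at E12.5, 0.79 in the OE and 1.84 in the VNO, and its change against E12.5 was 2.57 (limma adjusted p of 0.0024). Kit was 1.35 at E11.5 and -0.03 in the OE, and Nrg1 was 1.82 at E11.5 and -0.004 in the OE, with changes of 1.38 and 1.82, both called.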

How the data were processed

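Total RNA of pooled embryos was depleted of ribosomal RNA, labelled and hybridised to exon arrays. The authors summarised the scans per gene-level cluster by RMA (build mm9 in the submitters' notes, no version given), and the deposited values are log2. Whether the arrays were normalized together or per comparison is not certain, since the methods describe RMA for each pair of groups. Each array was centred on its median over the 23238 clusters tested, of 23339 in the table. limma 3.58.1 in R 4.3.3 fitted EPI against MES over the 6 arrays, and the interaction with age over 12 arrays, with Benjamini-Hochberg adjustment over all clusters. A gene was read on its brightest cluster with a single symbol (14996 clusters, with 1019 of several symbols and 7324 of none left out), with symbols updated through RefSeq. Named genes were the 10 largest and 10 smallest differences among calls, list members, the genes the study used for its fractions and the 5 largest changes each way between ages. Of 934 listed genes 810 were measured, and the others are not analysed here. The members and lists were chosen with earlier results of these data known. No detection calls were used, the 3 arrays per group limit the precision, and the models were tested on simulated data. Promoter windows are from RefSeq.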

Additional observations from a re-analysis of the deposited data

Results flagged for a closer look

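The EPI minus MES difference changed between ages by the limma interaction test, over 12 arrays each, for the following genes, which had the 5 largest changes in each direction. Against E12.5 the difference at E11.5 was larger by 3.88 log2 for Esd, 3.69 for Mrto4, 3.42 for Selenok, 3.35 for Spcs1 and 3.17 for Olfr231. Mrto4 was at 3.18 at E11.5 and -0.50 at E12.5, and Spcs1 at 2.34 and -1.01. It was smaller at E11.5 by changes of -2.12 for Olfr16, -2.07 for Olfr609, -2.0 for 4930548H24Rik, -2.0 for Olfr447 and -1.97 for Hsd3b3, dim genes such as Olfr16, which averaged -4.14 in EPI and -2.32 in MES at E11.5. Olfr609 was no longer called without any 1 of 7 arrays (EPI E11.5 replicate 1, MES E11.5 replicates 2 and 3, EPI E12.5 replicates 2 and 3, MES E12.5 replicates 1 and 3), at changes of -1.68 to -2.10 and limma adjusted p of 0.0541 to 0.0737, nor after quantile normalization (-1.86). Selenok was not called without any 1 of 4 (EPI E11.5 replicate 3, MES E11.5 replicate 2, MES E12.5 replicates 1 and 3), at 3.07 to 3.17 and limma adjusted p of 0.0523 to 0.056.

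Against the OE at E14.5 the difference at E11.5 was larger by 4.55 for Selenok, 4.29 for Sult1e1, 3.86 for Dnajc17, 3.31 for 2310067E19Rik and 3.25 for Rnf7. It was smaller by changes of -3.97 for Neurod6, -3.43 for Islr2, -3.37 for Foxf1, -3.28 for AY036118 and -3.22 for Tbx22. Neurod6 was at -0.30 at E11.5 and 3.67 in the OE. AY036118 was uneven at E11.5, with 1.77, 0.79 and 3.62 in EPI and 1.88, 2.90 and 2.71 in MES. Islr2 was no longer called without any 1 of 10 arrays (all but EPI OE replicates 2 and 3), at changes of -3.35 to -3.54 and limma adjusted p of 0.0505 to 0.0681. AY036118 was not called without any 1 of 7 (EPI E11.5 replicates 1 and 2, MES E11.5 replicates 2 and 3, EPI OE replicate 3, MES OE replicates 1 and 3), at -2.64 to -3.37 and limma adjusted p of 0.0512 to 0.0681.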

How the results depend on the processing

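Counts are genes higher and then lower in EPI, beside 577 and 210. They were 119 and 3794 on the deposited scale, 286 and 80 over the 8214 genes brighter than the median, 246 and 29 by Rank Products (100 permutations), and 2791 and 2083 with no minimum difference. Leaving out 1 array gave 507 to 644 higher and 159 to 273 lower, and 426 higher and 103 lower genes kept the call without each array. Quantile normalization shared 516 of the higher and 157 of the lower genes. Against E12.5 the deposited scale gave 108 larger and 2253 smaller differences at E11.5, and leaving out 1 array 538 to 684 and 133 to 267. Against the OE the deposited scale gave 2135 smaller differences, and leaving out 1 array 233 to 322 larger and 969 to 1473 smaller. With the replicate number as a block there were 568 higher and 204 lower genes. Deviations of arrays with the same number correlated at 0.03 to 0.13 and of those with other numbers at -0.14 to 0.11, so the numbers were not taken as pairs. The causes were not tested.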

Other observations

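Subunit genes of the respiratory chain were read as a group after their values were seen. Of 48, 11 were higher and 0 lower in EPI at E11.5 by limma, beside 3.90% and 1.42% of all genes. Their median was 0.46, which became -0.21 on the deposited scale, beside -0.65 over all genes on that scale. Rank Products called 7 higher and 0 lower. Against E12.5, 20 of the 48 had a larger difference at E11.5, beside 4.12% of all genes. The median of the 48 at E12.5 was -0.28, beside -0.06 over all genes. It was 0.665 in the OE and 0.71 in the VNO, beside 0.30 and 0.24 over all genes. Against the OE, 2 of the 48 were larger and 5 smaller at E11.5, beside 1.84% and 7.68% of all genes. Cox7a2, a subunit of cytochrome c oxidase, had 0.59, 0.77 and 0.53 in EPI and -1.09, -1.09 and -0.99 in MES at E11.5, and its difference was 1.68 at E11.5 and -0.09 at E12.5. Reference genes used for normalization were not all level either. By limma 3 of 11 were higher in EPI (2 after quantile normalization, 0 by Rank Products), beside 3.90% of all genes. Their median was 0.41, which became -0.26 on the deposited scale, beside -0.65 over all genes on that scale. Tfrc was at 1.09 on centred arrays.

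Olfactory receptor genes were called higher in 52 of 717 cases and lower in 23, beside 3.90% and 1.42% of all genes, and vomeronasal receptor genes in 7 and 1 of 82. Rank Products called 15 and 7 olfactory receptor genes, and 2 and 0 vomeronasal ones. Of the olfactory receptor calls 20 higher and 9 lower were kept when each array was left out, and the higher count was 34 without MES replicate 3 and 59 without EPI replicate 2, with 17 to 26 lower. Of the vomeronasal calls 5 higher and 1 lower were kept. Their mean levels lay below the array median by more than 3 log2 on all 6 arrays, at -3.25 to -3.24 in EPI and -3.54 to -3.34 in MES for olfactory receptors. The median difference of the olfactory receptors was 0.21, and it became -0.45 on the deposited scale, beside -0.65 over all genes on that scale.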
